A study of Mus musculus and Mus musculus x Mus spretus with 14 samples.

Results

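The comparison concerned 5 mouse skin carcinoma cell lines that the sample labels trace to 2 tumours, each tumour having given both squamous and spindle lines. Lines were taken where the labels name a shared tumour, which gave 6 of the 14 arrays and 5 of the 13 lines of the series. The first tumour arose in an F1 hybrid mouse of M. spretus and CBA that had received repeated DMBA, a chemical carcinogen, and it yielded the squamous line B9 and the spindle lines A5 and D3. The second pair, squamous E4 and spindle H11, are clones grown from single cells of SN161, itself taken from a metastasis in a lymph node of an F1 129/NIH mouse. The labels call the lines of each tumour clonally related and all 5 malignant. All were cultured alike in serum-containing DMEM, and total RNA was hybridised, after Cy3 labelling, to Exiqon miRNA arrays. Each line was 1 culture on 1 array, except A5, which was measured on 2 arrays whose values were averaged. The comparison addressed which miRNAs differ between the squamous and the spindle form of one tumour, and whether the same ones differ in the other tumour. The array holds 1271 probes, of which 576 carry a mouse miRNA name, and only these were counted below.

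MiRNAs are short RNAs that hold messenger RNAs in check, mainly through pairing of the seed, bases 2 to 8 counted from the 5′ end. In the skin, the miR-200 family is known to keep epithelial cells epithelial by repressing the transcription factors Zeb1 and Zeb2, while miR-205 and miR-203 belong to basal and differentiating keratinocytes. Spindle carcinoma is the undifferentiated, fibroblast-like form into which mouse squamous skin carcinomas can progress.

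The sequences below are the mature forms, from RefSeq on build GRCm38.p6, of the miRNAs that the comparison between the tumours turned on, with the seed in capitals. The first 5 are the miR-200 family, in which miR-200b, miR-200c and miR-429 share one seed and miR-200a and miR-141 another. The others are the 2 keratinocyte miRNAs, and miRNAs described below that differed in the first tumour only, in the second only, or in several pairs.
miR-200b: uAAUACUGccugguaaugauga
miR-200c: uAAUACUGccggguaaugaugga
miR-429: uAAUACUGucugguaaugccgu
miR-200a: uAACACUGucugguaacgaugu
miR-141: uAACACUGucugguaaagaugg
miR-205: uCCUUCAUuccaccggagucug
miR-203: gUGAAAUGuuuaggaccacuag
miR-455: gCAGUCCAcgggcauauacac
miR-27b: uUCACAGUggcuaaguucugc
miR-27a: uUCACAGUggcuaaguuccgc
miR-142-3p: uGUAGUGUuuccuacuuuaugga
miR-181a: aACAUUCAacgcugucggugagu
miR-322: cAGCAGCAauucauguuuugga
miR-195: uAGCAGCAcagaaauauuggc
miR-20b*: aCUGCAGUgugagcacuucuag

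MiR-200b (chr4:156055685-156055706), miR-200a (chr4:156054911-156054932) and miR-429 (chr4:156053916-156053937) lie together on the minus strand, and miR-200c (chr6:124718324-124718346) and miR-141 (chr6:124717917-124717938) form the other cluster, also on the minus strand. MiR-205 lies at chr1:193507503-193507524 on the minus strand and miR-455 at chr4:63256904-63256924 on the plus strand. MiR-709 and miR-466f-3p are named only.

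A further 15 sequences are shown because the spindle sisters A5 and D3 differed between near-identical members of 2 seed families. The let-7 family, which restrains proliferation genes such as Ras and Hmga2, shares the seed GAGGUAG.
let-7a: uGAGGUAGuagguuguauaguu
let-7b: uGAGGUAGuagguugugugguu
let-7c: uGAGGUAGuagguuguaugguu
let-7d: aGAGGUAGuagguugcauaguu
let-7e: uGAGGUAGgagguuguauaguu
let-7f: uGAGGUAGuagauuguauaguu
let-7g: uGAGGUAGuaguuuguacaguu
let-7i: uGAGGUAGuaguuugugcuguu
miR-98: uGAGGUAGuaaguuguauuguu
miR-17: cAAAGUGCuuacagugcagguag
miR-20a: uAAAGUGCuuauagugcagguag
miR-106a: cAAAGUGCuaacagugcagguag
miR-20b: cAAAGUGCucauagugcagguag
miR-93: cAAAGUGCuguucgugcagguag
miR-106b: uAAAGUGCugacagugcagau

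The values were log2 signals between 5.93 and 15.2, so a difference of 1 is a 2-fold difference in signal. The medians of the 8 negative control probes lay between 6.50 and 6.71 on the 6 arrays. A miRNA less than 1 above that median was taken as near background, and a difference against a line near background understates the change in the miRNA. Between 127 and 185 mouse probes stood above background on an array, and 70 did so on all 6. The 2 A5 arrays correlated at r = 0.994 and differed by 1 or more on 0 of 576 probes, with an SD of the difference of 0.16. This is the spread between arrays of the same line, not between lines. A5 stood apart from the other lines. Its arrays correlated with the other lines at a median r of 0.73 and 0.74 across the mouse probes, against 0.81 to 0.89 for the arrays of the other 4 lines. The arrays also differed in their controls: the level of the U6-snRNA-2 probe was 15.06 on B9 and 14.77 on D3, but 12.57 and 12.82 on A5, 13.26 on E4 and 12.55 on H11. The mean level of the spike-in probes was 7.79 on B9, 7.63 on D3 and 7.97 on E4, and 9.19 and 9.35 on A5 and 9.13 on H11. The part of these technical values in the differences below was not tested.

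The miRNAs that mark the phenotypes followed the labels in part. MiR-205 had a log2 level of 10.94 in squamous B9, 7.30 and 7.47 on the A5 arrays, 6.92 in D3, 6.69 in squamous E4 and 6.90 in spindle H11. It was above background in B9 only, so squamous E4 was near background like the 3 spindle lines for this keratinocyte miRNA, and those low values have no order. Among the 8 other lines of the series its level ran from 6.52 to 11.5. MiR-203 had levels of 6.94 in B9, 6.83 and 6.89 on the A5 arrays, 6.95 in D3, 6.80 in E4 and 7.13 in H11. It was near background in all 5 lines, while it reached 10.2 in another line of the series. The miR-200 family separated squamous from spindle lines in both tumours, as described next, but stood well below the levels of up to 10.9 for miR-200b and 11.2 for miR-141 in other lines.

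Only 3 of the 576 mouse miRNAs differed by at least 1 log2 unit in the same direction in all 3 pairs of sister lines (A5 against B9, D3 against B9, H11 against E4). MiR-709 was higher in the spindle line each time, and miR-200b and miR-466f-3p were lower. The share of mouse probes that met this rule was 0.174% for higher and 0.347% for lower levels. A5 and D3 are compared with the same B9 array, so these 2 pairs are not independent of each other. Of the 3, miR-466f-3p met the rule under every scaling tried. MiR-709 missed it under quantile normalization, with differences of 0.78, 0.78 and 2.05. MiR-200b missed it under quantile normalization (-1.06, -0.91 and -1.52) and with low values floored (-0.90, -0.99 and -0.91). With the floor it could not meet the rule, since all 3 spindle lines were set to the floor and both squamous lines lay less than 1 above it.

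MiR-709, a very bright small RNA on this array, had a level of 12.90 in B9, 14.90 and 14.78 on the A5 arrays, 14.46 in D3, 11.16 in E4 and 12.62 in H11. In each tumour the spindle lines lay above their squamous sister, but H11 lay below squamous B9. The spindle minus squamous difference was 1.94 for A5, 1.56 for D3 and 1.46 for H11. In limma with the tumour as a block, the difference was 1.62 ± 0.38 (SE, 5 lines), with an adjusted p of 0.981 after Benjamini-Hochberg adjustment over the 576 probes.

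MiR-200b had a level of 8.08 in B9, 6.91 and 6.63 on the A5 arrays, 6.95 in D3, 8.05 in E4 and 6.92 in H11. Both squamous lines were at the same level and all 3 spindle lines were near background. The differences were -1.31 for A5, -1.13 for D3 and -1.13 for H11, and the limma estimate was -1.18 ± 0.33 (SE) with an adjusted p of 0.981.

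MiR-466f-3p, of the large miRNA cluster in an intron of Sfmbt2, had a level of 11.89 in B9, 7.47 and 7.21 on the A5 arrays, 10.49 in D3, 10.41 in E4 and 9.33 in H11. The spindle line was lower each time, but D3 lay above squamous E4. Its differences were uneven, at -4.55 for A5, -1.41 for D3 and -1.07 for H11. The 17 measured members of 25 listed for that cluster had median differences of -0.07, -0.03 and -0.09 in the 3 pairs, beside -0.01, -0.02 and 0.07 over all mouse probes.

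**Figure D1:**
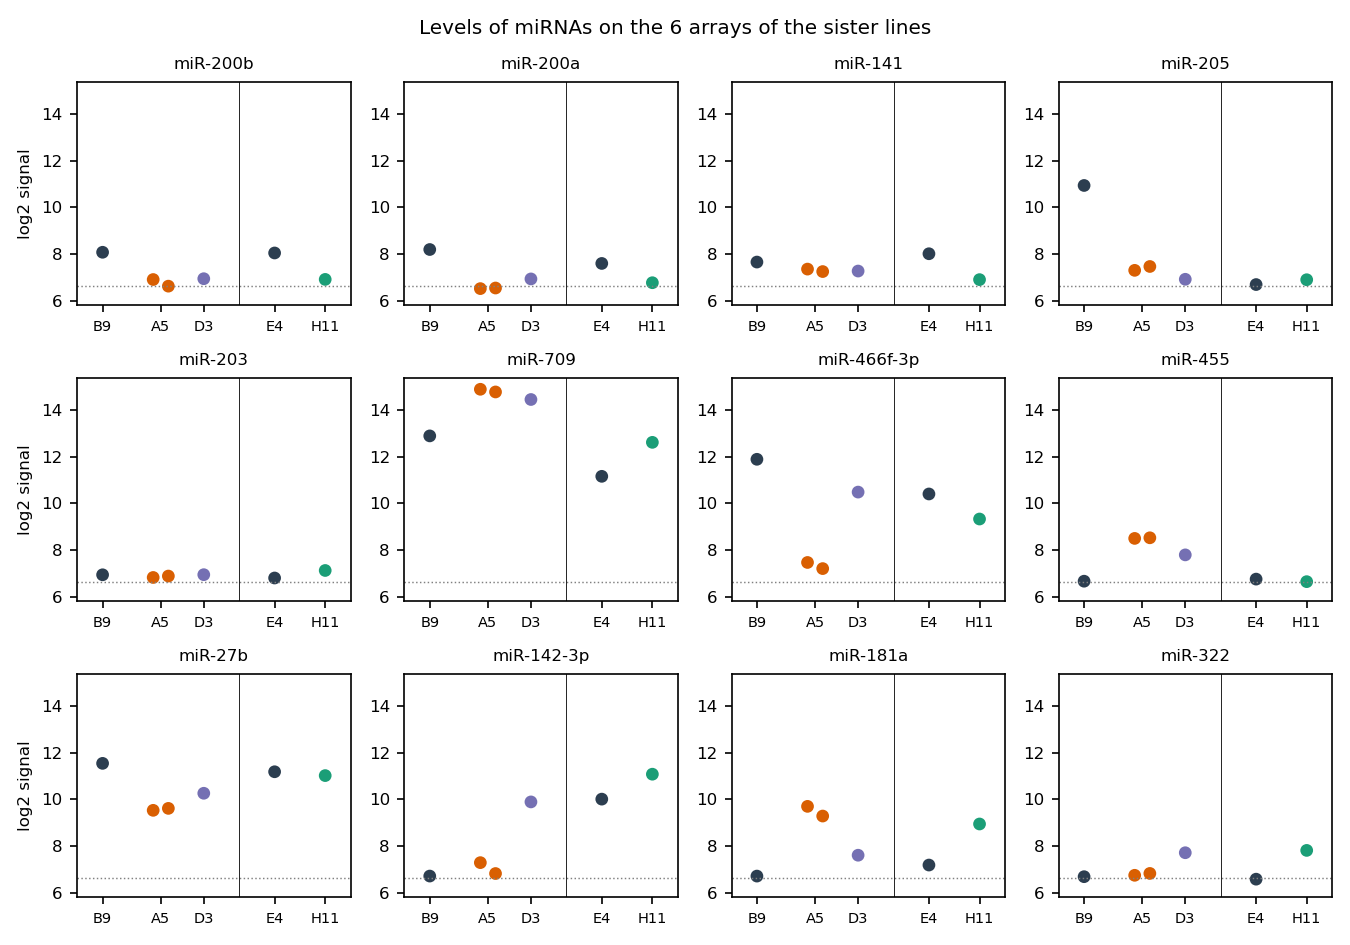
Log2 signal of 12 miRNAs on the 6 arrays of the sister lines, with squamous B9 and E4 in dark blue, A5 (2 arrays) in orange, D3 in purple and H11 in green. The dotted line is the mean of the negative control medians and the vertical line parts the tumours. MiR-709 is higher and miR-200b lower in every spindle line than in its squamous sister, while miR-205 is high in B9 alone.

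Just below the threshold stood miR-181a, which differed by 2.78 for A5, 0.89 for D3 and 1.76 for H11, and miR-200a, which differed by -1.66, -1.26 and -0.83. A difference of any size in the same direction in all 3 pairs was found for 82 probes with higher levels in the spindle lines (14.2%) and 73 with lower levels (12.7%). Of the 576 probes tested in limma within tumours, 0 rose and 0 fell at an adjusted p of 0.05 (0%), and 7 had an unadjusted p under 0.05 (1.22%), of which 3 were higher (0.521%) and 4 lower (0.694%) in the spindle lines. The smallest adjusted p was 0.981. With 5 lines the residual of each probe has 2 degrees of freedom, from the distance between A5 and D3 and from the difference between the tumours. Limma draws it towards a spread shared by probes of like intensity.

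The miR-200 family had lower levels in the spindle lines. All 5 members were lower in the spindle line in all 3 pairs, as were 12.7% of all mouse probes. The median differences were -0.86 for A5, -0.69 for D3 and -0.83 for H11. In each pair 2 members were lower by at least 1 and 0 were higher. This is set beside a background of 11.6%, 2.26% and 6.25% of mouse probes lower by at least 1 in A5, D3 and H11.

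MiR-200a had a level of 8.20 in B9, 6.52 and 6.55 on the A5 arrays, 6.94 in D3, 7.60 in E4 and 6.77 in H11. MiR-141, which shares its seed, had levels of 7.66 in B9, 7.36 and 7.25 on the A5 arrays, 7.27 in D3, 8.02 in E4 and 6.91 in H11. For both, the squamous lines were above all spindle lines, but miR-141 passed a difference of 1 only in H11 (-1.11). MiR-429 differed by -0.86, -0.69 and -0.24 and miR-200c by -0.50, -0.08 and -0.55, with both near background in all 5 lines. With low values set to a floor 0.5 above the negative controls of each array, miR-200b, miR-200a and miR-141 stayed lower in all 3 pairs. MiR-429 then differed by -0.14 in A5 and -0.23 in D3, and miR-200c by -0.07 in H11. In the remaining pairs of miR-429 and miR-200c both lines lay at the floor. Their values, 0.14 for miR-429 in H11 and 0.11 and 0.02 for miR-200c in A5 and D3, are differences between control medians. They give no direction for these miRNAs. The family had 3 members above background in B9 and 3 in E4, and 0 in each of the spindle lines.

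In the first tumour, 2 miRNAs were at least 1 higher in both spindle lines than in B9 (0.347%), namely miR-455 and miR-709, and 7 were at least 1 lower (1.22%). Of these, 1 higher (0.174%) and 2 lower (0.347%) differed by less than 0.5 in the second tumour. MiR-455, processed from an intron of the collagen gene Col27a1, had a level of 6.67 in B9, 8.50 and 8.53 on the A5 arrays, 7.80 in D3, 6.76 in E4 and 6.65 in H11. It was above background in A5 and D3 only, and in the 8 other lines of the series it lay between 6.61 and 6.96. The differences were 1.85 for A5, 1.13 for D3 and -0.11 for H11, and that of D3 was 0.93 under quantile normalization and 0.72 with low values floored.

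MiR-205 and miR-27b were the lower ones. MiR-205 differed from B9 by -3.56 in A5 and -4.02 in D3, and from E4 by 0.21 in H11, with the levels given above. An exact two-sided permutation of the phenotype within tumours gave a mean difference of -1.79 with p = 0.333 for miR-205 and 0.14 with p = 0.667 for miR-203. Adjusted over these 2 tests both p-values were 0.667, and the smallest p that the 6 arrangements allow is 0.167. In limma, the change of miR-205 in the first tumour minus that in the second was -4.00 ± 1.57 (SE) with an adjusted p of 0.465.

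MiR-27b, known in adipose and vascular cells for repressing Pparg and other targets, had a level of 11.55 in B9, 9.53 and 9.62 on the A5 arrays, 10.27 in D3, 11.19 in E4 and 11.02 in H11. The squamous lines and H11 lay above both spindle lines of the first tumour. The differences were -1.97, -1.28 and -0.16. The other 4 miRNAs lower in both first-tumour pairs, apart from miR-200b, were miR-200a, miR-466f-3p, miR-9* and miR-801. MiR-9*, singled out after its values were seen, differed by -1.15, -2.46 and 0.65.

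In the second tumour alone, 5 miRNAs were at least 1 higher in H11 than in E4 while differing by less than 0.5 in both first-tumour pairs (0.868%), and 12 were lower (2.08%). The higher ones were let-7c (2.02), miR-195 (1.59), miR-140* (1.48), miR-199a-3p and miR-199b on their common probe (1.48) and miR-33 (1.27). Let-7c had levels of 11.44 in B9, 12.04 and 11.73 on the A5 arrays, 11.28 in D3, 9.37 in E4 and 11.39 in H11. E4 was thus the low line, and H11 was level with the first tumour.

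This common probe, for miRNAs of fibroblasts and other mesenchymal cells, had levels of 6.46 in B9, 6.46 and 6.52 on the A5 arrays, 6.95 in D3, 6.53 in E4 and 8.01 in H11. H11 was the only line above background. MiR-195, which shares the seed AGCAGCA with miR-322 and is known to restrain the cell cycle, had levels of 7.90, 7.46 and 7.44, 8.10, 7.29 and 8.88 on the same 6 arrays, where E4 was lowest and H11 highest.

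The 8 largest of the 12 lower ones were miR-20b* (-2.14), miR-19a* (-1.65), miR-469 (-1.57), miR-590-3p (-1.43), miR-466g (-1.33), miR-216a (-1.31), miR-590-5p (-1.24) and miR-742* (-1.17). MiR-20b*, the passenger strand of miR-20b, had levels of 6.34 in B9, 6.74 and 6.70 on the A5 arrays, 6.14 in D3, 8.46 in E4 and 6.32 in H11. Levels of miR-590-3p were 6.26 in B9, 6.67 and 6.61 on the A5 arrays, 6.17 in D3, 7.88 in E4 and 6.44 in H11. For both, E4 was above background and the other 4 lines were not. Passenger strands, marked by a star, made up 5 of the 12 (41.7%) and 19.8% of all mouse probes. Among all 36 probes at least 1 lower in H11 than in E4 they numbered 8 (22.2%), near the share of all probes.

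High values of E4 were also seen on probes that name no mouse miRNA. E4 lay at least 1 above each of the other 4 lines on 12 mouse probes (2.08%) and on 21 of 570 probes for miRNAs of other species (3.68%). On the latter probes H11 was at least 1 below E4 on 37 (6.49%) and above it on 6 (1.05%). The part of this in the lower miRNAs of the second tumour was not tested.

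In limma, the change of the first tumour minus that of the second passed an adjusted p of 0.05 for 4 of 576 probes, 3 positive (0.521%) and 1 negative (0.174%). At an unadjusted p under 0.05 there were 28 (4.86%), 22 positive (3.82%) and 6 negative (1.04%). The difference was 1.23 ± 0.23 (SE) for let-7g* with an adjusted p of 3.97e-05, 2.22 ± 0.54 for miR-20b* with an adjusted p of 0.00902, 1.58 ± 0.39 for miR-590-3p with an adjusted p of 0.00902 and -0.85 ± 0.23 for miR-181c with an adjusted p of 0.0302. Levels of let-7g* were 6.25 in B9, 6.63 and 6.52 on the A5 arrays, 6.11 in D3, 7.44 in E4 and 6.29 in H11. Let-7g* was less than 1 above the negative control median in all 5 lines, E4 included. MiR-181c was 7.18 in B9, 6.64 and 6.60 on the A5 arrays, 6.25 in D3, 6.26 in E4 and 6.36 in H11, and so stayed near background in all 5 lines. The residual of each probe in this test is the distance between A5 and D3 alone, with 1 degree of freedom. Limma draws it towards a spread shared by probes of like intensity. The SE and p-values thus do not come from the spread of that probe alone. Without the intensity trend 0 probes passed. The same held when only the 266 probes above background on some array were tested or when low values were set to a floor.

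**Figure D2:**
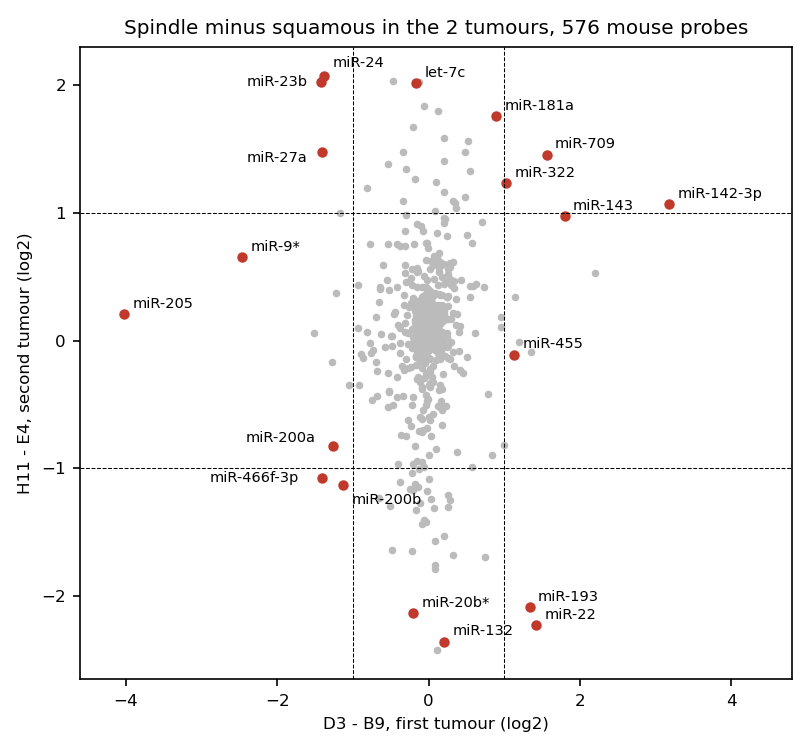
Spindle minus squamous log2 difference of 576 mouse probes, D3 minus B9 on the horizontal axis and H11 minus E4 on the vertical axis, with dashed lines at -1 and 1. MiR-205 lies far left near 0 on the vertical axis, miR-709 and miR-142-3p lie upper right, miR-200b and miR-466f-3p lower left, and miR-24, miR-23b and miR-27a upper left.

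D3 and H11, the spindle lines other than A5, shared 3 miRNAs higher by at least 1 than in their squamous sister (0.521%), miR-142-3p, miR-322 and miR-709, and 2 lower (0.347%), miR-200b and miR-466f-3p. MiR-142-3p, known as a miRNA of blood cells, had a level of 6.72 in B9, 7.29 and 6.82 on the A5 arrays, 9.89 in D3, 10.01 in E4 and 11.08 in H11. It was near background in B9 and A5 and high in D3, E4 and H11, squamous E4 included, and lay between 6.54 and 7.15 in the 8 other lines. MiR-142-5p, from the same hairpin, followed with 6.71, 7.07 and 7.18, 8.91, 9.33 and 9.86 on the same arrays. The other 5 blood cell miRNAs did not follow this pattern: miR-223 lay between 6.66 and 7.14 in the 5 lines, miR-451, miR-144 and miR-486 between 6.44 and 6.67, and miR-150 between 7.08 and 7.74. The summed level of the 7 was 47.4 in B9, 48.3 in A5, 52.6 in D3, 52.6 in E4 and 54.8 in H11.

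MiR-322, which shares its seed with miR-195 and lies on the X chromosome with miR-503, miR-351, miR-542 and miR-450, had levels of 6.69 in B9, 6.75 and 6.83 on the A5 arrays, 7.72 in D3, 6.58 in E4 and 7.82 in H11. D3 and H11 alone were above background. MiR-503 of the same cluster was instead 1.24 higher in A5, 0.36 in D3 and 1.04 in H11. Of the 9 measured members of the cluster, 5 were higher in the spindle line in all 3 pairs, beside 14.2% of all mouse probes. Those at least 1 higher were miR-503 and miR-542-3p in A5 (6.6% of all mouse probes), miR-322 and miR-450a-5p in D3 (1.91%) and miR-322 and miR-503 in H11 (5.56%).

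A5 and H11 shared 6 miRNAs higher by at least 1 than in the squamous sister (1.04%) and 7 lower (1.22%). Apart from miR-709, the higher ones were miR-181a, let-7b, miR-125b-5p, miR-503 and miR-433*. MiR-181a, known to modulate signalling in lymphocytes, had a level of 6.71 in B9, 9.70 and 9.29 on the A5 arrays, 7.61 in D3, 7.19 in E4 and 8.95 in H11, with all spindle lines above both squamous lines. MiR-181b, which is transcribed with it, differed by 1.96, 0.33 and 0.62. MiR-125b-5p, a miRNA of skin stem cells, had levels of 12.60 in B9, 14.61 and 13.76 on the A5 arrays, 12.55 in D3, 9.96 in E4 and 11.80 in H11. Only A5 exceeded B9, and H11 lay above E4 but below B9.

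The mesenchymal miRNAs shared a direction in part, but 0 of them were at least 1 higher in all 3 pairs. Of the 9 measured members of 10 listed, 5 were higher in the spindle line in all 3 pairs, beside 14.2% of all mouse probes. The steps were mostly small, with medians of 0.25, 0.20 and 0.92. Members at least 1 higher numbered 1 in A5 (6.6% of all mouse probes), 1 in D3 (1.91%) and 2 in H11 (5.56%), a different one in each first-tumour pair.

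MiR-143, a miRNA of smooth muscle and fibroblasts, had a level of 6.55 in B9, 6.72 and 6.67 on the A5 arrays, 8.35 in D3, 6.20 in E4 and 7.18 in H11, so that D3 alone was above background. Its cluster partner miR-145 differed by -0.06, 0.96 and 0.19. MiR-214 was 1.24 higher in A5, and differed by -0.12 in D3 and -1.27 in H11, with E4 at 9.27 and H11 at 8.00. MiR-140, a cartilage miRNA, was 0.66 higher in A5, differed by -0.48 in D3 and was 2.04 higher in H11. The endothelial miRNAs miR-126-3p and miR-126-5p were near background in all 5 lines, between 6.54 and 6.80.

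The epithelial cluster that holds miR-183, miR-182 and miR-96 was lower in A5, with all 3 members at least 1 below B9, as were 11.6% of all mouse probes, and a median of -1.51. It differed less in D3, with a median of -0.41, and in H11, with a median of -0.29. MiR-183 had levels of 9.11 in B9, 6.60 and 6.80 on the A5 arrays, 8.69 in D3, 8.04 in E4 and 7.75 in H11, where D3 lay close to B9. MiR-96 differed by -1.20, -0.45 and 0.23, and miR-182 by -1.51, -0.36 and -0.74.

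The related miR-222 and miR-221, both known to hold down the inhibitor of cell division p27, were lower in all 3 pairs, as were 12.7% of all mouse probes. MiR-222 had levels of 10.35 in B9, 8.43 in A5, 9.87 in D3, 11.79 in E4 and 10.15 in H11, with differences of -1.92, -0.49 and -1.64. MiR-221 differed by less, -0.37, -0.68 and -0.43. The miR-29 family, which represses collagens, went different ways: miR-29a by 0.60, 0.58 and -0.99, miR-29b by -0.62, 0.84 and -0.90, and miR-29c by -0.15, 0.51 and 1.56.

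The inflammatory miR-146a was lower in A5 (-1.11) and in H11 (-1.21) but not in D3 (0.25), and miR-155 was higher in A5 (1.58), with 0.62 in D3 and 0.06 in H11. The 51 measured miRNAs of the imprinted Dlk1-Dio3 cluster had medians of 0.04, -0.02 and 0.01. Of these, 3 were higher and 2 lower by at least 1 in A5, where 6.6% and 11.6% of all mouse probes were, 0 in D3, and 2 lower in H11, where 6.25% were. These shares are near or under those of all probes.

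**Figure D3:**
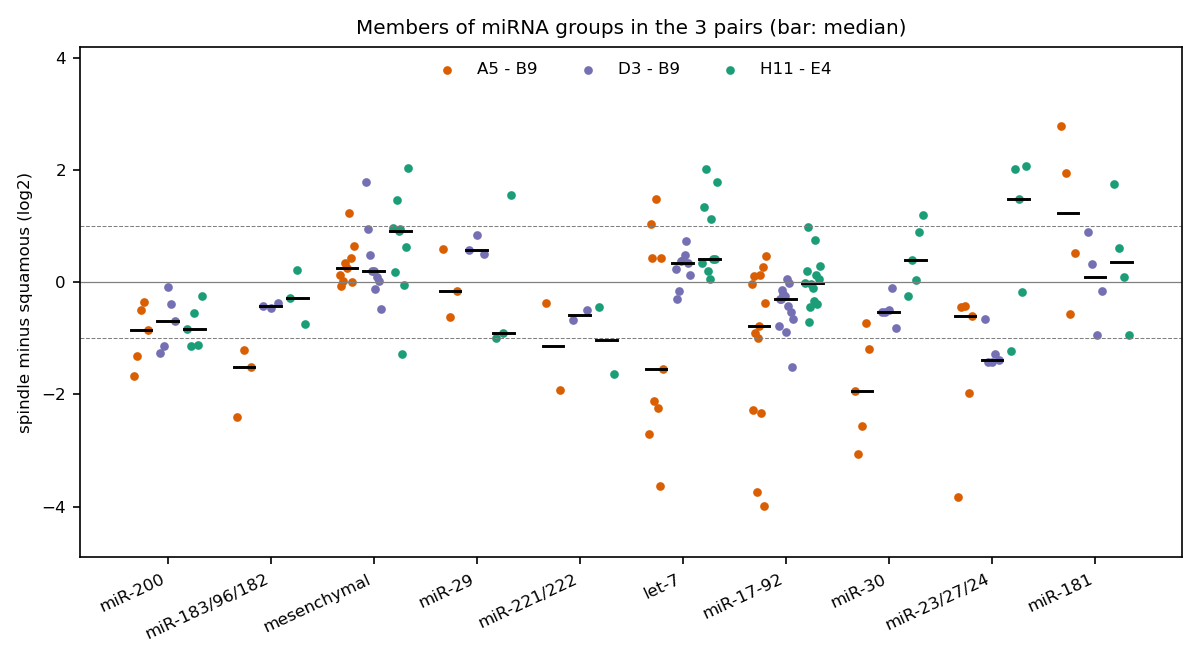
Spindle minus squamous log2 difference of each member of 10 miRNA groups in the 3 pairs, with the group median as a bar and dashed lines at -1 and 1. All 5 miR-200 points lie below 0 in each pair, while let-7, miR-30 and miR-17 cluster members spread to about -4 in A5 alone and the miR-23/27/24 members lie below 0 in D3 and mostly above in H11.

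Of the 5 members of the miR-23/27/24 clusters, 3 went opposite ways in D3 and H11 and 2 did not. All 5 were lower in D3, 4 of them by at least 1 (2.26% of all mouse probes), while in H11 3 were at least 1 higher (5.56%) and 1 at least 1 lower (6.25%). MiR-24, miR-23b and miR-27a had differences of -1.38, -1.42 and -1.41 in D3 and of 2.08, 2.03 and 1.48 in H11. The probe of miR-24, a miRNA that promotes keratinocyte differentiation, had levels of 12.12 in B9, 11.67 and 11.36 on the A5 arrays, 10.74 in D3, 9.62 in E4 and 11.70 in H11. Squamous lines were thus the highest and the lowest of the 5. In A5 the 3 differed by -0.61, -0.44 and -0.42. MiR-23a, a near relative of miR-23b, did not follow it and was lower in the spindle line in all 3 pairs, with levels of 11.26 in B9, 7.47 and 7.38 on the A5 arrays, 10.60 in D3, 12.08 in E4 and 10.85 in H11, and differences of -3.83, -0.66 and -1.23. MiR-27b was also lower in all 3 pairs, as given above. MiR-27a was named after its values were seen.

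Opposite differences of at least 1 in both first-tumour pairs and in H11 were found for 1 miRNA, miR-801 (0.174%), and for 0 that were higher in the first tumour (0%). Its levels were 11.45 in B9, 10.42 and 10.23 on the A5 arrays, 10.28 in D3, 7.63 in E4 and 8.64 in H11, with differences of -1.13, -1.18 and 1.00, the last at the threshold and between 0.82 and 0.89 under quantile normalization or either centring. MiR-22, a miRNA of ageing and differentiating cells, separated A5 and H11 from D3, with levels of 9.86 in B9, 7.51 and 7.50 on the A5 arrays, 11.28 in D3, 12.25 in E4 and 10.02 in H11. Its differences were -2.35 in A5, 1.42 in D3 and -2.23 in H11. MiR-193 and miR-132, singled out after their values were seen, also differed by -2.09 and -2.36 in H11, by 1.34 and 0.20 in D3 and by -0.16 and 1.27 in A5.

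A5 and D3 differed from each other more than D3 differed from squamous B9. A5 was at least 1 above D3 on 47 mouse probes (8.16%) and below it on 69 (12%). D3 was above B9 on 11 (1.91%) and below it on 13 (2.26%), and A5 above B9 on 38 (6.6%) and below it on 67 (11.6%). H11 was above E4 on 32 (5.56%) and below it on 36 (6.25%). The SD of the differences over the 576 probes was 0.90 for A5 minus D3, 0.92 for A5 minus B9, 0.44 for D3 minus B9 and 0.61 for H11 minus E4. Between 2 arrays of A5 it was 0.16.

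**Figure D4:**
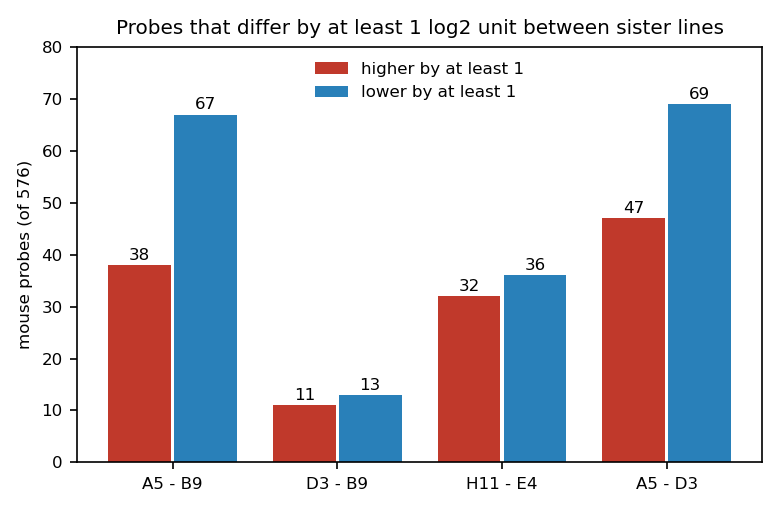
Number of the 576 mouse probes at least 1 log2 unit higher (red) or lower (blue) in the first named line of each comparison. D3 minus B9 has 11 and 13 such probes, and A5 minus D3 has 47 and 69.

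The 6 largest lower values in A5 than in D3 were those of let-7g (-4.37), miR-21 (-4.11), miR-31 (-4.00), miR-16 (-3.84), miR-22 (-3.77) and miR-20a (-3.53). MiR-21, the best known oncogenic miRNA of carcinomas, had levels of 12.50 in B9, 8.56 and 8.25 on the A5 arrays, 12.52 in D3, 13.57 in E4 and 12.95 in H11. MiR-31, induced in squamous carcinoma, had levels of 12.01, 7.53 and 7.69, 11.61, 11.27 and 10.30. In both cases A5 alone was low. The largest higher values in A5 were those of miR-337-3p (2.26), miR-542-3p (2.06), miR-150* (2.05), miR-181a (1.89), miR-433* (1.76) and miR-125b-3p (1.75). Levels of miR-337-3p, of the Dlk1-Dio3 cluster, were 7.58 in B9, 9.89 and 9.57 on the A5 arrays, 7.47 in D3, 8.21 in E4 and 7.61 in H11.

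The A5 values parted close relatives within seed families. On the brightest probe of each of the 9 let-7 members, A5 was at least 1 below D3 for 5 (12% of all mouse probes). These were let-7g (-4.37), let-7a (-2.95), let-7f (-2.72), let-7d (-2.50) and miR-98 (-1.67). It was at least 1 above D3 for 2 (8.16% of all mouse probes), let-7b (1.33) and let-7e (1.08). Let-7c (0.60) and let-7i (0.09) differed by less than 1. Let-7b, let-7d, let-7e and let-7i were named after their values were seen. Another, dimmer probe of 4 members gave smaller differences for 3 of them: A5 minus D3 was -0.54 for let-7g (probe 2), -0.95 for let-7d (probe 2) and -1.93 for let-7f (probe 2), and it was 0.46 for let-7i (probe 2). On these probes the levels of let-7g (probe 2) were 7.82 in B9, 7.34 in A5 and 7.88 in D3. The size of the split thus depended on the probe, and for let-7g and let-7d the second probe did not reach a difference of 1.

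Let-7a had levels of 10.26 in B9, 7.56 in A5, 10.51 in D3, 10.06 in E4 and 10.40 in H11, and let-7e 12.78, 14.26, 13.18, 12.39 and 12.45. A5 was the lowest line for let-7a and the highest for let-7e. Counted from the 5′ end of let-7a, let-7c carries A19G and let-7e carries U9G as the only base difference. Let-7a, let-7c and let-7e are each measured by 1 probe. The 4 members with 7 or 8 G or C bases (let-7a, let-7f, let-7g and miR-98) were all lower in A5 than in D3, and of the 5 with 9 or 10 only let-7d was, on the brightest probes.

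The miR-17 seed family, with seed AAAGUGC, showed the same split. MiR-17 and miR-20a come from one primary transcript and differ by C1U and C12U. MiR-17 had levels of 10.60 in B9, 10.58 in A5, 9.83 in D3, 9.27 in E4 and 9.25 in H11. MiR-20a had levels of 10.86 in B9, 7.24 and 7.01 on the A5 arrays, 10.65 in D3, 9.89 in E4 and 9.45 in H11. A5 was thus level with B9 for miR-17 and the lowest line for miR-20a.

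A5 minus D3 was 0.75 for miR-17, 0.12 for miR-106a and 1.15 for miR-93, but -3.53 for miR-20a, -3.47 for miR-106b and -1.91 for miR-20b, whose second probe (miR-20b (probe 2)) gave -1.05. MiR-17, miR-20b and miR-106a each have 11 G or C bases, miR-93 has 12, and miR-20a and miR-106b have 9. MiR-23a and miR-23b parted in A5 as well, at -3.18 and 0.98 against D3. Whether cross-hybridisation between relatives, base composition or the labelling of the A5 RNA plays a part was not tested.

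**Figure D5:**
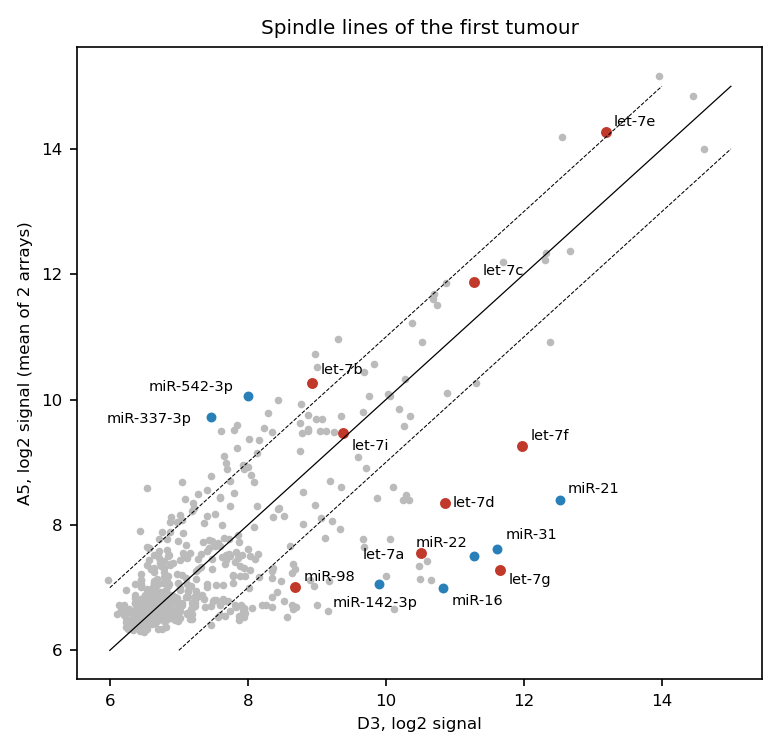
Log2 signal of 576 mouse probes in the spindle lines D3 (horizontal) and A5 (vertical, mean of 2 arrays) of the first tumour, with let-7 family members in red, other named miRNAs in blue, the line of equality, and dashed lines 1 unit to either side. Let-7a, let-7d, let-7f, let-7g and miR-98 fall below the lower line with miR-21, miR-31, miR-16 and miR-22, while let-7b and let-7e lie above the upper one.

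A level of at least 10 in any of the 5 lines was found for 60 mouse probes. Of these, A5 was at least 1 below B9 on 26 and above it on 11 (11.6% and 6.6% of all mouse probes). D3 was below B9 on 10 and above it on 4 (2.26% and 1.91%), and H11 below E4 on 7 and above it on 12 (6.25% and 5.56%). A probe could enter this set through the line where it is high, so the rule itself shapes these counts. The miR-30 family followed the A5 pattern, with 4 of 5 members at least 1 lower in A5 than in B9 (11.6% of all mouse probes), 0 in D3 (2.26%) and 0 in H11 (6.25%), where miR-30e was 1.19 higher, and medians of -1.93, -0.53 and 0.40. The difference of miR-30b in A5 was -3.07.

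Since A5 stood apart, the counts were also taken without it. Without A5, the miRNAs at least 1 higher in the remaining pairs numbered 3 and those lower 2, and without D3 they numbered 6 and 7. Across the 576 probes, D3 minus B9 and H11 minus E4, which share no array, had r = 0.01 and rho = 0.12, as a description over probes that are not independent of each other.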

How the data were processed

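The values used were the log2 signals that the authors deposited for 14 Exiqon arrays, 1271 probes with 0 missing values; that they are log2 was read from the values. Total RNA was labelled with Cy3 per the labels' protocols. Scanner and normalization were not given in the sources used here, and the centring and offset are unknown, so levels were compared between arrays as deposited. The groups come from the labels. A5 arrays were averaged, and 1 line against 1 line was described by size only, at 1 log2 unit. Within-tumour differences and the interaction of tumour and phenotype were fitted in limma 3.58.1 (R 4.3.3) with an intensity trend. The tumour was a block because its lines share a mouse, and Benjamini-Hochberg adjustment ran over 576 mouse probes. The fit was also run on simulated data with independent noise in each line. Those data hold no departure of a whole array like that of A5, so no conclusion is drawn from them. The p-values rest only on the spread between these lines, which limma shares across probes, and the number of arrays limits the precision. Named miRNAs were miR-203, miR-205, those past the rules in each comparison (up to 10, 8 or 6 in each direction), and members of miRNA lists. The members and lists were chosen with earlier results of these data known. Of 39 mature sequences looked up, 36 matched.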

Additional observations from a re-analysis of the deposited data

Results flagged for a closer look

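The difference between the tumours in spindle minus squamous passed the limma test for 4 miRNAs, as the change of the first tumour minus that of the second. It was 2.22 log2 units for miR-20b*, 1.58 for miR-590-3p, 1.23 for let-7g* and -0.85 for miR-181c, with adjusted p-values of 0.00902, 0.00902, 3.97e-05 and 0.0302. MiR-20b* and miR-590-3p were above background in E4 alone. Let-7g*, with the smallest adjusted p, was highest in E4 and miR-181c highest in B9, and these 2 were near background in all 5 lines. Both spindle sisters of the first tumour had the sign opposite to H11 for miR-181c only. There H11 minus E4 was 0.098, less than the SD of 0.16 between the A5 arrays.

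Probes for viral miRNAs, which lie outside the mouse probes compared, gave signal. They entered the counts over probes of other species and the limma fit over all 1146 miRNA probes, where 1 of the 8 calls was viral. Of 89 such probes, 12 stood more than 1 above the negative control median in B9, 15 in A5, 12 in D3, 12 in E4 and 9 in H11. In E4, 0 of the 89 lay at least 1 above each of the other 4 lines, and in A5 1 did.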

How the results depend on the processing

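The settings tried were quantile normalization, centring each array on bright probes or on negative controls, either A5 array alone, a floor 0.5 above the negative controls, only the 266 brighter probes, other sizes of change, other limma settings and leaving out each line. Counts stayed within 1.5 times in 138 cases and moved further in 74. Quantile normalization left 0 miRNAs higher and 1 lower (miR-466f-3p) in all pairs, 0 higher in the first tumour only and 0 opposite. The negative call between tumours was then miR-690 (-1.48) and no longer miR-181c. Centring on bright probes left 0 opposite and, between tumours, 1 positive and 0 negative calls. Centring on negative controls gave 20 lower in the second tumour only, 0 opposite and 0 negative calls between tumours. The first A5 array gave 2 higher in the first tumour only and 0 negative calls between tumours, and the second gave 2 negative calls.

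With the floor, D3 minus B9 had 6 higher, H11 minus E4 18 lower, all pairs 1 lower (miR-466f-3p), the first tumour only 0 higher and the second only 6 lower, with 0 positive and 0 negative calls between tumours. The 4 calls between tumours also fell to 0 and 0 with the brighter probes only, without an intensity trend and with all 13 lines sharing one spread, and became 8 and 0 with all 1146 miRNA probes.

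At 0.58 log2 units, counts of higher and lower were 83 and 108 for A5 minus B9, 23 and 36 for D3 minus B9, 71 and 63 for H11 minus E4, 2 and 4 in all pairs, 4 and 10 in the first tumour only, 22 and 21 in the second only, and 2 and 5 opposite, and A5 minus D3 had 100 higher. At 1.5 they were 14 and 40, 4 and 3, 11 and 13, 0 and 0, 0 and 1, and 2 and 3, with 0 opposite, and 12 and 35 for A5 minus D3.

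Leaving out A5 or D3 gave 3 to 6 higher and 2 to 7 lower in all remaining pairs, 4 to 15 higher and 5 to 39 lower in the first tumour only, 12 to 20 higher and 13 to 29 lower in the second only, and 2 to 4 and 4 to 8 opposite. The within-tumour limma test gave 0 higher and 0 lower without A5 or without D3. Without B9 the estimate is H11 minus E4 alone, at -1.14 for let-7g* and -2.14 for miR-20b*. Without E4 or H11 it is that of the first tumour alone, and without H11 it was -0.27 for miR-153 and -0.75 for miR-181c. Such runs do not measure a change shared by the tumours. With no replicate block the within-tumour test gave 0 higher and 0 lower, with 6 at an unadjusted p under 0.05. Counts shared between tumours without B9, E4 or H11, and the test between tumours without any line, were not run because no such comparison remains. Of 173 values of 11 named miRNAs over 16 settings, 168 kept their direction. Taking all miRNA probes, only the brighter probes or no intensity trend leaves the estimate itself unchanged, so those settings could not turn a direction. Leaving out a line, miR-203 ran from -0.0399 to 0.3221, miR-205 from -3.7888 to 0.2071 and miR-455 down to -0.11. The signs of miR-205 and miR-455 turned without B9, where only H11 minus E4 remains. That of miR-203 turned without E4 or H11, where only the first tumour remains. MiR-200c turned to 0.0083 with the floor, which replaced its values in B9, A5, D3 and H11. That sign thus gives no direction for miR-200c.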
